A study of Mus musculus with 2 samples.

Results

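Dense clusters of Etv4 regions were defined on the Etv4 list of EpRas cells by joining neighbouring regions when the gap to the next one was at most 12500 bp, and keeping joined stretches of 5 or more regions. There were 241 clusters, holding 1612 of the 13511 nuclear Etv4 regions that were analysed (11.9%). The deposited list held 13636 regions, of which 6 on the mitochondrial genome and 119 in a stretch of chromosome 4 were left out. Another 5295 regions lay in 2178 stretches of 2 to 4 regions, and 6604 regions stood alone. The clusters were selected on the positions of the Etv4 regions, so their number, size and density are descriptions and carry no test. EpRas cells derive from EpH4, a mouse mammary epithelial line, by transformation with an oncogenic H-Ras. They were grown in 4% serum and received 1 ng/ml TGF-β3 for 1.5 h, which applied to both libraries. One ChIP-seq library was made with a rabbit polyclonal antibody to Etv4 and one with a mouse monoclonal antibody to Etv5. With 1 library per antibody there was no replicate. Intervals of shares are exact (Clopper-Pearson) 95% binomial intervals and those of differences are approximate 95% intervals, and both cover counting error only and treat neighbouring regions as independent.

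Etv4 and Etv5 belong to the PEA3 group of ETS transcription factors, which act downstream of receptor tyrosine kinases, Ras and ERK in mammary epithelium. ETS proteins bind DNA with a GGAA core, often beside AP-1 sites, which Fos and Jun dimers occupy. TGF-β signals through receptor-activated Smads to genes that include its own feedback inhibitors. Runs of closely spaced regions in a ChIP-seq list can mark a locus with many separate binding sites, or a long enriched stretch that the caller has broken into pieces, and a list without read counts does not tell these apart.

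The sequences below are examples of the patterns searched, chosen for the ETS and AP-1 letters they share or the genes they lie at. The ETS pattern searched was CAGGAAGT or CCGGAAGT and the AP-1 pattern TGACTCA or TGAGTCA, each searched on both strands of the 500 bp centred on a region. In 5 clustered regions, an ETS and an AP-1 pattern shared 1 base, and all 5 had the same 14-base sequence. This fused form was looked for after the Smad3 site had been seen, and that site is counted among the 5. It occurred in 0.310% of the 1612 clustered regions (0.101 to 0.722%) and in 12 of 11899 regions outside clusters (0.101%, 0.0521 to 0.176%). A looser form, without the first 2 bases, was about as frequent in clusters (0.558%) as outside (0.513%). The Smad3 site lay in an intron, in chr9:63721871-63721944 (GRCm38, plus strand). The Nedd9 site was also intronic, in chr13:41331976-41332049 (minus strand). The Map7d1 site lay within 2 kb of a transcript start, in chr4:126240296-126240369 (minus strand). The Cd151 site lay 1.68 kb from the start of that gene, in chr7:141469046-141469119 (plus strand). The fifth lay in an intron of a gene that is not protein-coding, in chr17:45777431-45777504 (plus strand). The Smad3, Nedd9 and chromosome 17 regions overlapped an Etv5 region and the other two did not, where 37.6% of all Etv4 regions did. Capitals mark the fused pattern.
Smad3: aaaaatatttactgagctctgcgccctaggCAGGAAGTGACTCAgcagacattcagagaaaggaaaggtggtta
Nedd9: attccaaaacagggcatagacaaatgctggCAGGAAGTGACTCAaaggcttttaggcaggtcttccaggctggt
Map7d1: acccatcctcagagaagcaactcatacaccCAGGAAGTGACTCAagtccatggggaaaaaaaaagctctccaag
Cd151: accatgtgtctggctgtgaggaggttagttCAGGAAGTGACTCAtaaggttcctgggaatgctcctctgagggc
chromosome 17: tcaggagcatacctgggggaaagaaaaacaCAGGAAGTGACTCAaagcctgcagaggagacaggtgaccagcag

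Further ETS sites came from the clusters at TGF-β, AP-1 and immediate early genes, and each is shown with 30 bases on either side. Among the 28 regions of the Pmepa1 cluster only 2 held the ETS pattern, at chr2:173222388-173222455 beyond the gene's end and at chr2:173237600-173237667 in an intron (both plus strand). Of 3 regions with the pattern in the Fosl1 cluster, the one shown had its site 13.8 kb upstream of the gene, in chr19:5433707-5433774 (plus strand). The Bhlhe40 site lay downstream of the gene, in chr6:108668029-108668096 (plus strand), in the only region of that cluster that overlapped an Etv5 region. Of 2 regions with the pattern at Klf6, the one shown, upstream of the gene in chr13:5859278-5859345 (plus strand), belonged like the other to a cluster with 0 Etv5 regions. Capitals mark the ETS pattern.
Pmepa1, beyond the gene: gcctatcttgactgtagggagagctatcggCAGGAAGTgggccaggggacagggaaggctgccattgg
Pmepa1, intron: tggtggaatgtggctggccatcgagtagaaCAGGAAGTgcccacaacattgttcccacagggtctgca
Fosl1: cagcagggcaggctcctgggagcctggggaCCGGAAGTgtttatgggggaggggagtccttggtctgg
Bhlhe40: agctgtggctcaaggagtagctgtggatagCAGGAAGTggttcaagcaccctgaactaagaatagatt
Klf6: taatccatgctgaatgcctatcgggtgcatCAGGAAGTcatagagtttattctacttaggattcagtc

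A tandem run of 6 ETS patterns, each 22 bp from the next, lay downstream of Krt8, the gene of a simple-epithelium keratin. It spanned chr15:101995579-101995726 (GRCm38, minus strand) in a clustered Etv4 region of 903 bp that did not overlap an Etv5 region. Capitals again mark the pattern.
Krt8 downstream run: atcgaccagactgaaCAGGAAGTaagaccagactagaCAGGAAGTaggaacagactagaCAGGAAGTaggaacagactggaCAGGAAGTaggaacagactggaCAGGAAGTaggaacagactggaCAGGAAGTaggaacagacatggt

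Most clusters were close to the smallest size allowed. There were 95 clusters of 5 regions, 55 of 6, 35 of 7, 18 of 8, 11 of 9 and 27 of 10 or more. Just outside the limit lay 222 stretches of 4 regions. Their median span was 13.6 kb, against 17.8 kb for clusters of 5, and 39.9% of their regions overlapped an Etv5 region, against 40.4% in clusters of 5. The median span of all clusters was 21.9 kb (range 3.51 to 79.4 kb), and the spans together covered 5.66 Mb, or 0.208% of the nuclear chromosomes. The median gap between neighbouring regions inside clusters was 1798 bp, and 513 of 1371 gaps (37.4%) were at most 1 kb. Within a cluster the median gap was typically wider, with a median over clusters of 2311 bp, and the largest gap had a median of 8405 bp. Etv4 regions covered a median of 21.5% of the span, and in 20 clusters over 50%. The next Etv4 region outside a cluster was a median of 45.8 kb away. Chromosome 11 held the most clusters (30), and chromosome 15 the most per 100 protein-coding genes (2.68). Chromosome 14 held 282 Etv4 regions and 0 clusters.

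**Figure D1:**
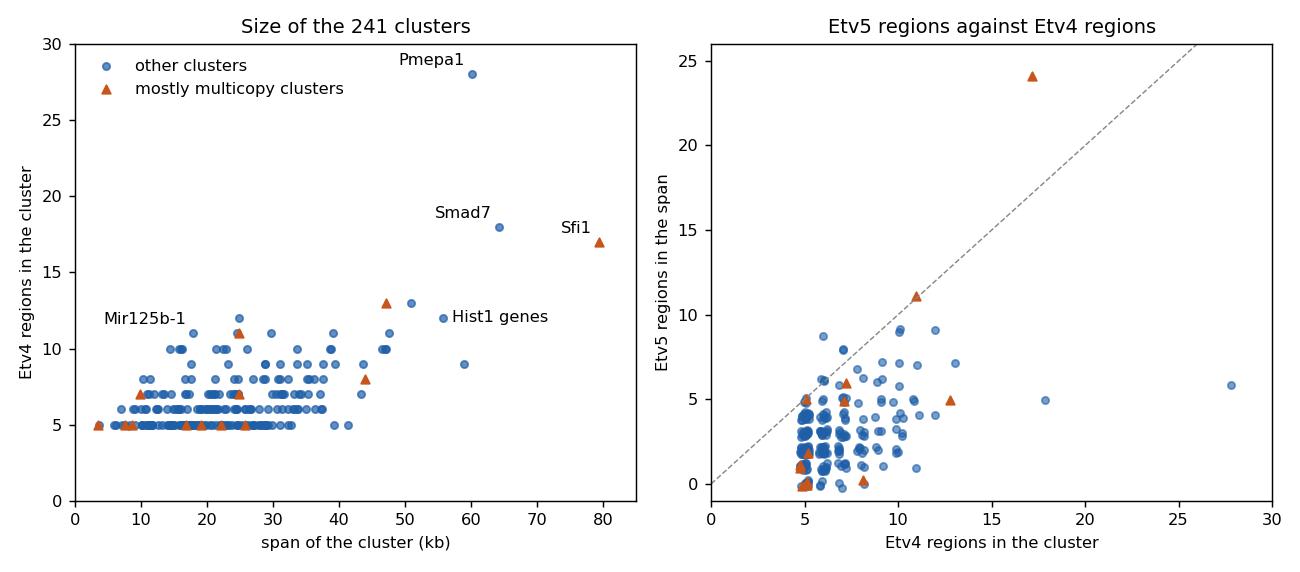
Left, span (kb) against number of Etv4 regions for each of the 241 clusters, with triangles for the 13 clusters made mostly of multicopy regions. Right, Etv4 regions against Etv5 regions in the same span, with points shifted slightly at random to separate them and a dashed line where both numbers are equal; the Pmepa1 cluster (28 Etv4 regions) stands apart in size and only 4 clusters lie above the line.

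Genes of the TGF-β pathway held the 2 largest clusters. Of the 21 TGF-β feedback and target genes examined, 5 overlapped a cluster span, where 1.55% of all 21938 protein-coding genes did (340 genes). This list and those below were chosen with earlier results of these data known, so their shares are descriptions. Pmepa1, a TGF-β-induced membrane protein that restrains Smad signalling, had the largest cluster, with 28 Etv4 regions over 60.2 kb (chr2:173222043-173282270). Of these, 25 had their midpoint inside the gene, mostly in introns, from 1.88 to 50.7 kb downstream of its start. Of the other 3, 2 lay beyond its end and 1 lay 5.13 kb upstream. The regions were 299 to 4545 bp long and covered 51.1% of the span. Only 6 Etv5 regions lay in this span, and the 4 Etv4 regions that overlapped them had a median length of 2680 bp, against 596 bp for the other 24. Of these 4, 3 were intronic, between 11.2 and 18.7 kb downstream of the gene start, and the other lay 5.13 kb upstream. All 6 Etv5 regions thus lay on the promoter side of the centre of a cluster that ran through the whole gene.

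Smad7, the inhibitory Smad of the pathway, had 18 Etv4 and 5 Etv5 regions in 64.3 kb (chr18:75341871-75406184). Of the 18, 9 had their midpoint inside the gene, 5 lay upstream of its start, as far as 24.8 kb away, and the others beyond its end. The 5 regions that overlapped an Etv5 region lay 22.4 kb, 3.81 kb and 0.817 kb upstream and 7.80 kb and 38.2 kb downstream of the start, at intervals across the cluster. Their median length was 894 bp, against 523 bp for the other 13 regions. Unlike those of Pmepa1, the Etv5 regions at Smad7 were thus spread over the cluster.

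Smad3, a receptor-activated Smad, had a small cluster of 5 Etv4 regions of 406 to 633 bp, all in introns 31.3 to 51.3 kb downstream of its start, with 2 Etv5 regions (chr9:63706376-63726862). The 2 regions with the ETS pattern in this cluster also held the AP-1 pattern, and one of them carried the fused site printed above. The cluster at Bhlhe40, a basic helix-loop-helix repressor, had 8 regions within 10.3 kb, covering 58.5% of the span, with 2 Etv5 regions (chr6:108658693-108668991). Of the 8, 5 had their midpoint inside the gene. The other 16 genes on this list, among them Skil, Id1 and Tgfbr1, overlapped no cluster.

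**Figure D2:**
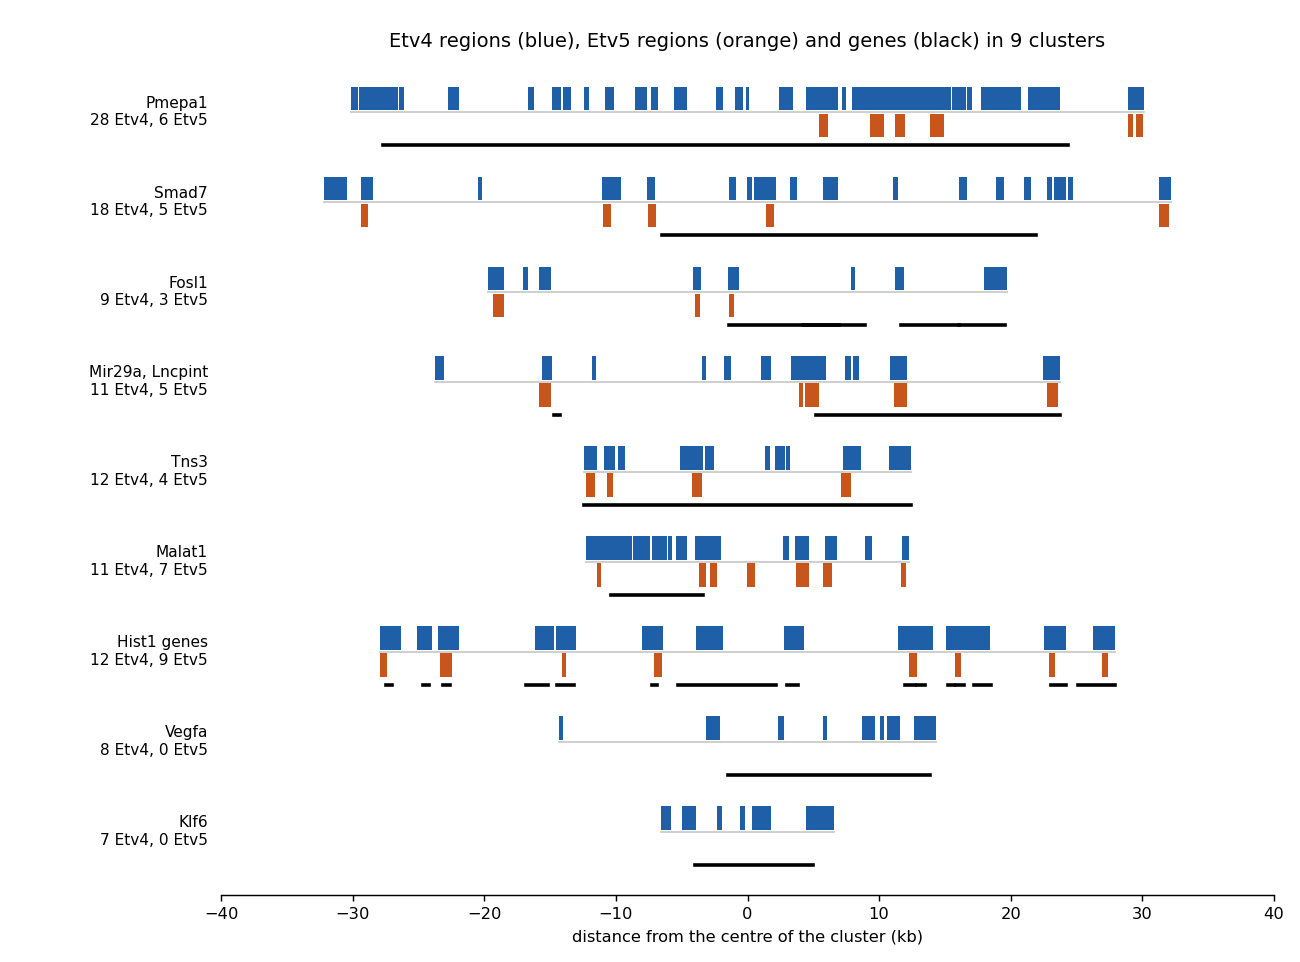
Etv4 regions (blue, above each line), Etv5 regions (orange, below) and gene bodies (black) in 9 clusters, drawn to scale as distance from the cluster centre (kb). All 6 Etv5 regions lie on one side of the centre in the Pmepa1 cluster, and they are spread over the Smad7 and Malat1 clusters and number 0 in the Vegfa and Klf6 clusters.

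Clusters also lay at genes of AP-1 and of the immediate early response. Of 10 AP-1 genes, Fosl1 and Junb overlapped a cluster. The Fosl1 gene, which encodes Fra-1, lay in a cluster of 9 Etv4 and 3 Etv5 regions over 39.4 kb (chr19:5429287-5468666). The 3 regions that overlapped an Etv5 region lay 17.7 and 2.43 kb upstream and 0.368 kb downstream of its start, and the 4 regions further downstream, at the neighbouring Ccdc85b, Fibp and Ctsw genes, overlapped none. The cluster at Junb had 7 Etv4 and 8 Etv5 regions in 24.7 kb, and 5 of the 7 Etv4 regions overlapped an Etv5 region. Only 1 of the 7 had its midpoint inside the gene. This cluster was one of 4 with more Etv5 than Etv4 regions. Of 18 other immediate early genes, 3 overlapped a cluster. These were Myc, a growth regulator (6 Etv4 regions in the cluster), Klf6, a zinc-finger factor (7), and Mcl1, an inhibitor of apoptosis (5). Of these regions, 4 at Myc, 4 at Klf6 and 1 at Mcl1 had their midpoint inside the gene. All 3 clusters held 0 Etv5 regions. Of 15 ERK feedback genes, which include the Dusp, Sprouty and Spred genes as well as Etv4 and Etv5, only Ier3 overlapped a cluster. That cluster had 10 Etv4 and 3 Etv5 regions in 46.5 kb, and 1 of the 10 had its midpoint inside Ier3.

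The list with the largest share in clusters was that of actin cytoskeleton and adhesion genes. It had 7 of 20 members in clusters (35%). As all the lists were chosen with earlier results of these data known, this order of lists is a description only. The clusters at the β- and γ-actin genes Actb and Actg1 each had 5 Etv4 regions, with 2 and 3 Etv5 regions. Only 1 of the 5 at Actb and 2 of the 5 at Actg1 had their midpoint inside the gene. Myh9, the non-muscle myosin heavy chain, had 8 Etv4 regions over its first 24.5 kb, and Actn1, the actin crosslinker α-actinin, had 7 in its introns. Plec, which encodes the linker protein plectin, had 9 Etv4 and 7 Etv5 regions, and 7 of the 9 held the AP-1 pattern. The cluster at Lmna, a nuclear lamina gene on this list, had 7 Etv4 regions, 5 of them with their midpoint inside the gene. That at Itga5, the fibronectin receptor subunit, had 6, of which 1 was inside the gene and 5 lay upstream of its start. Among 19 epithelial genes, the neighbouring keratin genes Krt8 and Krt18 shared a cluster of 6 Etv4 and 3 Etv5 regions. The cluster at Krt7 had 5 Etv4 and 0 Etv5 regions. Runx1, the only member in a cluster among 4 RUNX genes, had 8 Etv4 regions 190 to 225 kb downstream of its first start. No member overlapped a cluster among 12 Yap and Tead targets, 8 EMT transcription factors, 10 EGF family ligands and receptors, or 9 loci of other lineages.

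**Figure D3:**
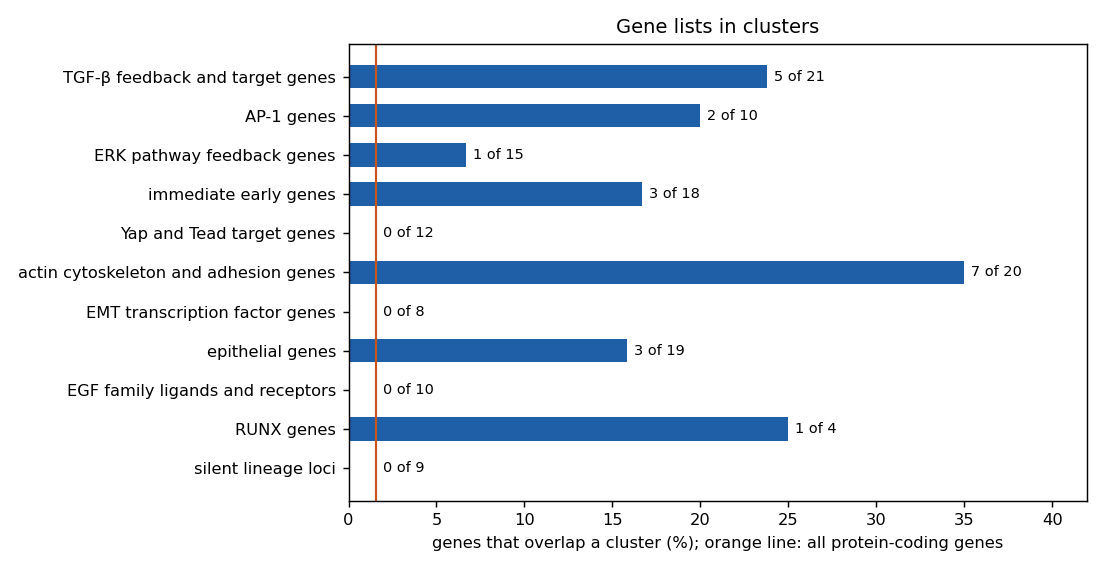
Share of each gene list (%) that overlaps a cluster span, with the number of genes, and a vertical line at 1.55%, the share of all protein-coding genes. Actin cytoskeleton and adhesion genes have the largest share (7 of 20), and 4 lists have no member in a cluster. The lists were chosen with earlier results of these data known.

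The remaining large clusters lay at genes of other kinds. Cdc42ep1, an effector of the Cdc42 GTPase, shared a cluster with Lgals2 and Gga1, with 13 Etv4 and 7 Etv5 regions in 50.9 kb (chr15:78826548-78877410). On chromosome 13, 15 replication-dependent histone genes lay in a cluster of 12 Etv4 and 9 Etv5 regions (chr13:23530626-23586435). All of its regions were 1104 bp or longer, 10 of the 12 lay within 2 kb of a transcript start, and none held the ETS or the AP-1 pattern. Tns3, a gene of the focal adhesion protein tensin 3, had 12 Etv4 and 4 Etv5 regions, all 197 to 221 kb downstream of its first start (chr11:8443268-8468116). A cluster with Syngr2, the thymidine kinase gene Tk1, Afmid and Birc5, which encodes survivin, had 11 Etv4 and 4 Etv5 regions, and 8 of the 11 lay within 2 kb of a transcript start (chr11:117810635-117849761). A cluster at Plin2, which encodes a lipid droplet coat protein, had 11 Etv4 and 5 Etv5 regions (chr4:86654687-86684428). Of the 11, 6 had their midpoint inside the gene. A cluster at the long non-coding RNA gene Malat1 had 11 Etv4 and 7 Etv5 regions (chr19:5793786-5818317), and the Etv4 regions covered 50.8% of the span. Malat1 itself took up only the part of this span from -10.4 to -3.38 kb from its centre. The next cluster, at the long non-coding RNA gene Neat1, was named after its values were seen. It had 10 Etv4 and 2 Etv5 regions, and the Etv4 regions covered 69.8% of the span. In the histone cluster the covered share was 39.0%, and in that of Smad7 it was 21.5%.

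Several clusters held microRNA genes, which were examined after their values had been seen. Of 2202 annotated miRNA genes, 40 overlapped a cluster span (1.82%), in 24 clusters, a share close to the 1.55% of protein-coding genes. The miRNA genes below are therefore descriptions of single clusters and not of miRNA genes as a group. Mature sequences are shown for the miRNAs that share a seed within or between clusters, and for miR-21a and miR-23a, miR-27a and miR-24, with the seed (bases 2 to 8) in capitals. They were taken from RefSeq on GRCm38.p6.
miR-29a-3p: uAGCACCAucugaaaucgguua
miR-29b-3p: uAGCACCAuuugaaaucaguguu
miR-125b-5p: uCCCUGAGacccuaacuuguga
miR-125a-5p: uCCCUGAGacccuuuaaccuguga
miR-21a-5p: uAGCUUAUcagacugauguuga
miR-23a-3p: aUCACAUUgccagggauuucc
miR-27a-3p: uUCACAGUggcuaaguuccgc
miR-24-3p: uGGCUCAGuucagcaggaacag

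Mir29a and Mir29b-1, whose 3p products share the seed AGCACCA, lay 147 and 510 bp from an 829-bp Etv4 region that overlapped an Etv5 region. Their cluster of 11 Etv4 and 5 Etv5 regions extended to the non-coding gene Lncpint and overlapped no protein-coding gene (chr6:31053589-31101075). In it 3 regions held the ETS pattern and 3 the AP-1 pattern. Mir125b-1 and Mir125a, whose 5p products share the seed CCCUGAG, lay in clusters on different chromosomes. The Mir125b-1 cluster had 11 Etv4 regions and 1 Etv5 region in 17.9 kb (chr9:41577544-41595405), and the cluster of Mir99b, Mirlet7e and Mir125a had 10 and 4 in 22.4 kb (chr17:17823791-17846218). The 2 clusters thus differed in their Etv5 regions more than in their Etv4 regions. Mir21a lay inside an Etv4 region of 7262 bp, in a cluster of 6 Etv4 and 6 Etv5 regions at Vmp1. Mir23a, Mir27a and Mir24-2, which are transcribed together, lay 1128, 962 and 799 bp from the nearest region of a cluster of 6 Etv4 and 4 Etv5 regions.

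Of the 241 clusters, 223 (92.5%, 88.5 to 95.5%) held at least 1 Etv5 region. As 37.6% of all Etv4 regions overlapped an Etv5 region and each cluster held 5 or more, this share is a description and nothing particular to clusters. The spans held 720 of the 8197 nuclear Etv5 regions analysed (8.78%). Of these 720, 91.7% overlapped an Etv4 region, against 60.2% of the 7477 Etv5 regions outside the spans. Etv4 regions are dense inside the spans by selection, so the first of these shares is only a description. The cluster with the most Etv5 regions was at Sfi1 (24), followed by one on the X chromosome (11), and both were mostly multicopy. Then came 4 clusters with 9 Etv5 regions each, at the histone genes on chromosome 13, in Dlgap1, at Itga3 and on the Y chromosome. Across clusters, the numbers of Etv4 and Etv5 regions had a Spearman correlation of 0.34 (n = 241, all from the same pair of libraries). In 4 clusters every Etv4 region overlapped an Etv5 region. Joined by the same rule, the Etv5 list gave 51 clusters, of which 40 (78.4%) overlapped an Etv4 cluster, and 16.6% of the Etv4 clusters overlapped an Etv5 cluster.

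The remaining 18 clusters held 0 Etv5 regions. The largest of them were at Eapp (8 Etv4 regions, mostly multicopy), at Vegfa, the vascular endothelial growth factor gene (8 regions of 307 to 1684 bp), and at Klf6 (7 regions of 344 to 2103 bp). Without the mostly multicopy ones there were 14 such clusters, holding 80 regions. These 80 regions had a median length of 648 bp, close to the 632 bp of all clustered regions. By selection none of the 80 overlapped an Etv5 region, whereas the groups set beside them include regions that did. The AP-1 pattern was present in 15.0% of the 80 regions (8.0 to 24.7%), against 29.2% of all clustered and 37.5% of all Etv4 regions. The ETS pattern was present in 3.75% (3 of 80, 0.780 to 10.6%), against 9.74% and 10.2%. Within 2 kb of a transcript start lay 42.5% (31.5 to 54.1%), against 39.1% and 36.5%. A closer group is the 974 clustered regions without Etv5 overlap, which include the 80. Their shares were 23.2% for AP-1, 9.55% for ETS and 41.1% near a start, each inside the interval of the 80. Whether these clusters differ from other clustered regions without Etv5 overlap was not tested.

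Etv5 overlap was compared between clustered and other Etv4 regions. Of the clustered regions, 39.6% (37.2 to 42%) overlapped an Etv5 region, against 37.3% (36.4 to 38.2%) of the 11899 regions outside clusters and 37.6% of all Etv4 regions. The difference was 2.27 percentage points (-0.243 to 4.83). Clustered regions were longer, with a median of 632 bp against 585 bp, and made up 18.7% of the longest of 4 equal length classes but 8.64 to 10.8% of the other classes. Overlap rose with length in both groups. In the longest class it was 62.1% in clusters and 67.0% outside, and in the class below 35.7% and 45.2%. In the next it was 25.7% and 24.9%, and in the shortest 15.3% and 14.9%. With the outside regions weighted to the lengths of the clustered ones, the difference was -3.60 points (-5.96 to -1.24), so its direction depended on whether length was taken into account.

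**Figure D4:**
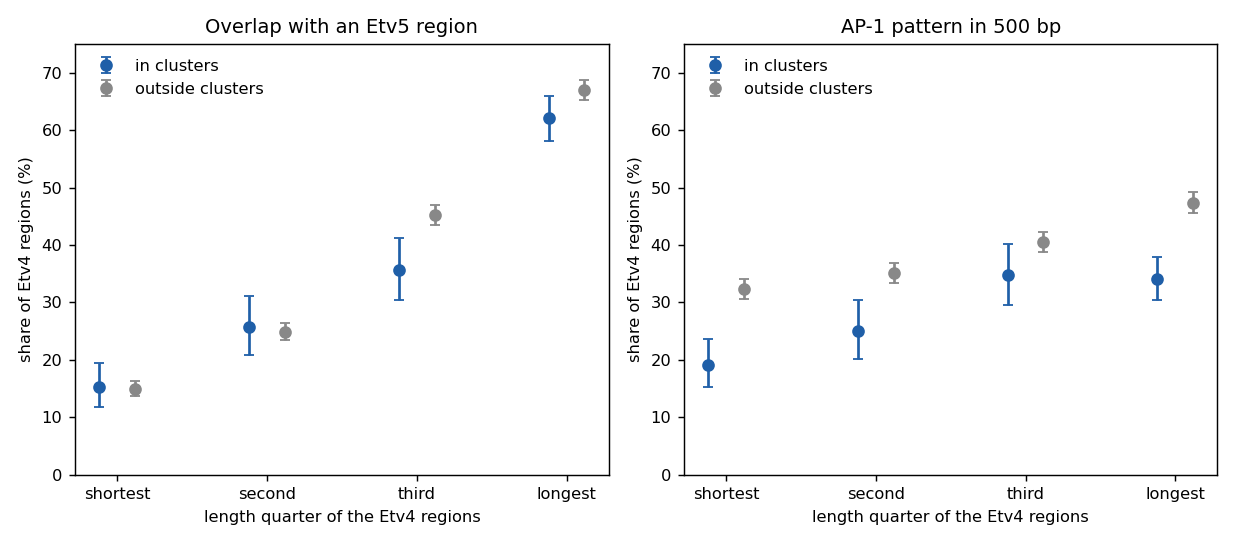
Share of Etv4 regions (%) that overlap an Etv5 region (left) and that hold the AP-1 pattern (right), in clusters (blue) and outside (grey), by length class (4 classes of equal number), with exact 95% intervals. Etv5 overlap rises from 15.3 to 62.1% with length in clusters, and the AP-1 share is lower in clusters in each class.

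Clustered regions lay less often between genes and more often in exons than other Etv4 regions. Intergenic regions beyond 2 kb of any transcript start made up 25.4% (23.3 to 27.6%) of clustered regions and 31.9% of the others. Exons away from a start held 4.84% (3.84 to 6.0%) and 2.31% (2.05 to 2.60%). Introns held 30.7% and 29.6%. Stretches of 4 regions, just outside the limit, were like clusters of 5 in this, with 28.9% and 28.6% intergenic and 4.17% and 4.42% in exons. Within 2 kb of a start lay 39.1% (36.7 to 41.5%) of clustered and 36.1% (35.3 to 37.0%) of other regions, a difference of 2.94 points (0.436 to 5.50) that turned to -0.730 when only the starts of protein-coding genes counted and was 0.700 (-1.91 to 3.36) without mostly multicopy regions. At least 1 region within 2 kb of a start was present in 191 clusters, and in 20 clusters every region was. A protein-coding gene overlapped 182 of the 241 spans, and in 54 clusters every region had its midpoint inside 1 such gene.

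The AP-1 pattern was less frequent in clusters. It was present in 29.2% (27 to 31.5%) of clustered regions and 38.6% of the others, a difference of -9.38 points (-11.7 to -6.95). It was lower in each length class, from 34.1% against 47.3% in the longest to 19.2% against 32.3% in the shortest. The share was lower in introns (37.4% against 51.9%), between genes (38.1% against 47.4%) and in exons (20.5% of 78 against 40% of 275), whereas near transcript starts the shares were 18.1% and 19.9%. By number of regions the share was 37.0% for single regions, 42.6% for pairs, 39.3% for stretches of 3 and 36.3% for stretches of 4. In clusters it was 29.7% for 5 regions, 34.5% for 6, 31.4% for 7, 30% for 8 or 9 and 20.7% (16.4 to 25.6%) for 10 or more, so it did not fall steadily. Of clustered regions that overlapped an Etv5 region 38.4% (34.6 to 42.3%) held the pattern, against 23.2% (20.6 to 26%) of those that did not, and the former were longer (median 864 against 568 bp). In 7907 windows of 500 bp tiled through the gaps of the same clusters, 8.11% held it (7.51 to 8.73%).

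The ETS pattern was found in 9.74% (8.34 to 11.3%) of clustered and 10.3% of other regions, a difference of -0.547 points (-2.01 to 1.09). The sign of the difference varied with position. Near transcript starts the share was 10.2% (7.91 to 12.8%) in clusters and 14.0% (13 to 15.1%) outside, whereas it was 9.90% (7.41 to 12.9%) and 7.97% (7.10 to 8.92%) in introns and 10.3% (7.50 to 13.6%) and 8.37% (7.51 to 9.30%) between genes. In exons it was 2.56% (2 of 78 regions) and 7.64% (21 of 275). In the gap windows it was found in 4.62% (4.16 to 5.10%). The same letters written backwards, a control of equal base composition, were present in 4.09% of clustered regions and 4.10% of the gap windows. The strict form CCGGAAGT alone was found in 2.42% (1.73 to 3.29%) of clustered and 3.63% of other regions, a difference of -1.21 points (-1.95 to -0.283). The RUNX pattern, TGTGGTT or TGTGGTC, was present in 23.0% of clustered regions, 25.0% of the others and 19.7% of the gap windows. At least 1 ETS pattern occurred in 115 of the 241 clusters and at least 1 AP-1 pattern in 196.

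**Figure D5:**
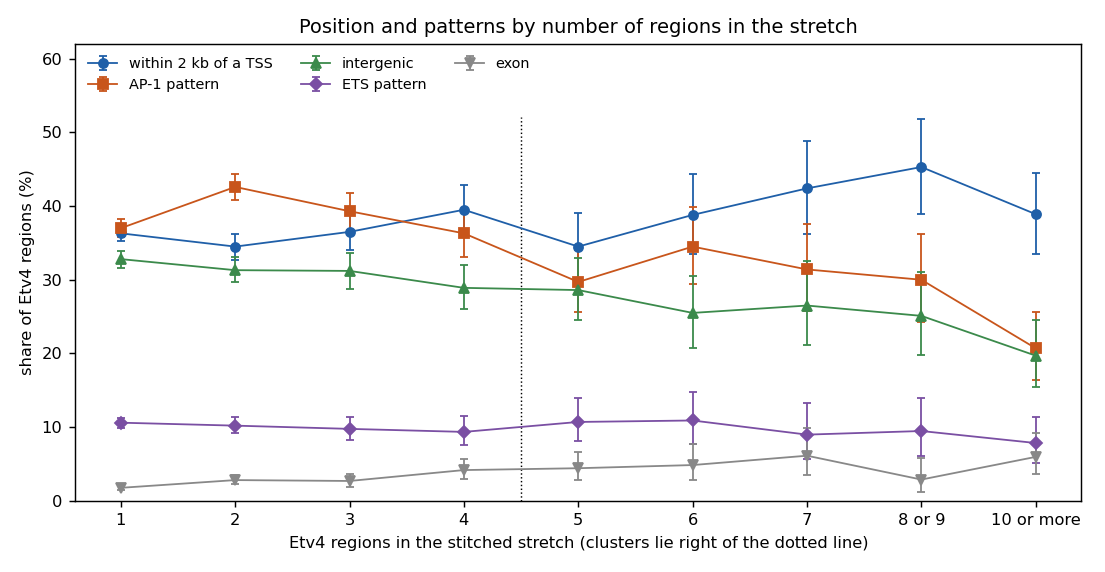
Share of Etv4 regions (%) by number of regions in the joined stretch, for position (within 2 kb of a transcript start, intergenic, exon) and patterns (AP-1, ETS), with exact 95% intervals; clusters lie right of the dotted line. The AP-1 share is 36.3 to 42.6% up to 4 regions, 29.7 to 34.5% from 5 to 9 and 20.7% for 10 or more, and the ETS share stays between 7.84 and 10.9%.

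In 13 clusters, over 50% of the Etv4 regions were mostly multicopy, meaning that most 36-base stretches in them have another copy elsewhere in the genome. These held 98 Etv4 and 60 Etv5 regions. They included the longest cluster, 79.4 kb at Sfi1 with 17 Etv4 and 24 Etv5 regions (chr11:3123510-3202884), a cluster of 13 Etv4 regions on chromosome 8 (chr8:20378192-20425289) and one of 11 Etv4 and 11 Etv5 regions on the X chromosome (chrX:75643500-75668384). The densest cluster was of this kind as well, with 5 regions in 3.51 kb of chromosome 1 (chr1:24611569-24615074), where 96.4% of the 36-base sequences of its regions also occur in the mitochondrial genome. The other densest clusters were at Trmt2a, with 5 Etv4 and 0 Etv5 regions in 3.57 kb, and a gene-free stretch at the start of chromosome 18, with 6 of each in 7.0 kb. Without the mostly multicopy clusters 228 remained, and the difference in AP-1 share from all outside regions was -8.22 points (-10.6 to -5.70). With mostly multicopy regions left out both inside and outside clusters it was -9.79 points (-12.3 to -7.22).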

How the data were processed

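EpRas cells were profiled by ChIP-seq with 1 library for Etv4 and 1 for Etv5, grouped by the antibody named in the labels. The authors called regions in each library by one-sample CisGenome (window of 300 bp, p 0.1) without an input library, so local copy number, mappability and open chromatin were not corrected for. Bowtie and mm10 are named in the submitters' processing notes. Each deposited file is a BED list of positions, and its score column holds 1000 in every row, so neither height nor depth is known.

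Positions were read as GRCm38, the assembly of mm10, with GENCODE vM21 genes. Etv4 regions were joined across gaps of at most 12500 bp. Regions overlapped when they shared at least 1 bp. Position was taken at the midpoint, first as within 2 kb of any transcript start, then exon, intron or intergenic. A region was called mostly multicopy when over 50% of its 36-base stretches were found elsewhere in the genome too. Gene lists, members and patterns were chosen with earlier results of these data known, and the fused pattern, histone, ribosomal and miRNA genes after their values were seen. The clusters named were the 12 with the most Etv4 regions, those with a list gene, the 3 with the most Etv5 regions, the 3 largest with 0 Etv5 regions, the 3 longest and the 3 densest. No test was made. Shares have exact Clopper-Pearson 95% intervals, differences Newcombe intervals, and weighted differences normal ones. Joining, overlap and pattern search were tested on simulated data with planted clusters and sites. Python 3.11.15, numpy 2.4.6, pandas 2.3.3, scipy 1.17.1 and matplotlib 3.10.9 were used. Alternatives were other joining distances, cluster sizes, overlap rules, start distances, windows and subsets. Some items covered by these rules are not reported here.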

Additional observations from a re-analysis of the deposited data

Results flagged for a closer look

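Outside the nuclear chromosomes, and thus outside every cluster, 6 Etv4 and 8 Etv5 regions lay on the mitochondrial genome. They were singled out as signal in data that the comparisons did not use. The 6 Etv4 regions were 306 to 3881 bp long and the 8 Etv5 regions 407 to 1449 bp. No input library was available to set beside them.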

How the results depend on the processing

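Differences below are clustered minus other Etv4 regions, in percentage points. The number of clusters followed the rule: 105 with joining at 5 kb, 414 at 25 kb, 463 with at least 4 regions, 56 with at least 8, 183 (with 1149 regions) when Etv4 regions within 300 bp were merged, and 68 among regions above the median length of each list. The share of clusters with an Etv5 region was 88.1% with at least 4 regions, 96.4% with at least 8 and 83.8% among the longer regions. The difference in Etv5 overlap was 4.78 (2.79 to 6.79) at 25 kb, 3.91 (0.957 to 6.92) with regions within 300 bp merged and 2.58 (0.475 to 4.71) with at least 4 regions. It changed sign to -2.86 when 50% of both regions had to overlap, to -2.06 for midpoints within 250 bp, to -2.19 with joining at 5 kb, to -3.60 weighted by length and to -2.78 weighted by length and position. The difference near transcript starts changed sign to -1.59 within 1 kb and to -0.730 for protein-coding starts, and was 10.1 within 5 kb, 5.37 (1.28 to 9.57) with at least 8 regions, 0.700 (-1.91 to 3.36) without mostly multicopy regions and 1.48 (-1.41 to 4.44) with regions within 300 bp merged. The difference in ETS share was -3.02 with joining at 5 kb, 1.12 over whole regions and 1.31 beyond 2 kb of a start. The difference in AP-1 share kept its sign in every alternative run, with -13.8 at 5 kb, -4.05 at 25 kb, -13.3 with at least 8 regions, -12.9 among the longer regions, -6.91 in 200 bp, -5.69 over whole regions and -12.8 beyond 2 kb of a start. The causes of these changes were not tested. Weighting and removal of mostly multicopy clusters were chosen after seeing the data. No paired analysis was possible because only 1 library existed for either antibody and nothing was tested. Depth is unknown, so a region missing from a list may be one below detection.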

Other observations

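Histone and ribosomal protein genes were also present in the clusters, counted by gene symbol after the clusters had been seen. Of 67 genes whose symbol begins with Hist, 30 overlapped a cluster span (44.8%), against 1.55% of all protein-coding genes. These genes lie next to one another, so a few clusters account for them. Of 101 ribosomal protein genes (symbols beginning with Rpl or Rps), 7 overlapped a cluster (6.93%). The clusters at Rpl12 and Rpl30 held 0 Etv5 regions.

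A looser form of the fused pattern, GGAAGT continuing into the AP-1 pattern, occurred in 9 clustered regions (0.558%, 0.256 to 1.06%) and in 61 regions outside (0.513%, 0.392 to 0.658%). The median GC content of the 500-bp windows was 51.6% in clustered regions and 49.2% in the others.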
